A study of Arabidopsis thaliana with 163 samples.

Results

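The regions described here are 734 places of the Arabidopsis thaliana genome at which acetylation of lysine 9 of histone H3 (H3K9ac) was lower after 2 h of jasmonic acid (JA) than in control seedlings and at which untreated seedlings carried no domain of H3K36me3, the trimethylation of lysine 36. A domain is a stretch of the genome with more reads than its control. The 734 regions were chosen by measured values: the deposited list of H3K9ac losses held 2550 regions on the 5 nuclear chromosomes, and a region was kept when it shared no base with a deposited H3K36me3 domain. The regions kept are called members below, and the other 1816 losses are the set they are compared with. The fall after JA and the lack of H3K36me3 are therefore given as descriptions, without a test. The regions were then sorted by overlap with domains of H3K4me3 and H3K27me3, and by whether any of 5 untreated H3K9ac libraries had a domain there.

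The series profiled chromatin with PHILO ChIP-seq, a plate-based protocol for little tissue, and holds 163 samples in 56 groups. The losses come from wild-type Col-0 seedlings of a time course, aged 10 days, exposed to gaseous methyl jasmonate for 2 h or left as control. A further experiment on a large scale treated Col-0 seedlings in the same way. Untreated Col-0 seedlings gave the domains of H3K4me3, H3K36me3 and H3K27me3, a pooled H3K9ac list, and separate H3K9ac lists for 3 PHILO and 2 regular ChIP-seq libraries, each called against IgG, an antibody without a specific target. MYC2 summits came from myc2 mutant seedlings that carry a FLAG-tagged MYC2 under its own promoter. By the study's methods those peaks set 2 h JA against control, but the deposited file names neither side. For these MYC2 samples and 1 untreated IgG library, the antibody, genotype and treatment fields of the labels read as untreated Col-0 H3K9ac, against their titles, and the titles were followed. All seedlings were whole, so fewer cells with the mark and less mark per cell cannot be told apart.

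H3K9ac and H3K4me3 mark the starts of active genes, and H3K36me3 is laid down along the bodies of genes during transcription. H3K27me3 is the mark of Polycomb repression, which keeps many developmental and stress genes silent in cells that do not use them. JA is the hormone of wounding and of defence against chewing insects and necrotrophs. When it is perceived, JAZ repressors are degraded and the bHLH factor MYC2, which binds the G-box CACGTG and close variants such as CACGTT, is freed to activate its targets, while growth and salicylic acid immunity are held back.

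Sequence of both of the following kinds is needed to read the results, and it is given here from the RefSeq copy of TAIR10.1, plus strand. The first kind is shown because the largest falls after JA lay on it: short tandem repeats, many of them of GAA or, read on the other strand, TTC. In each of the following the repeat is in capitals and 12 flanking bases are in lower case. AT4G04635, AT1G40125 and AT3G30190 are pseudogenes. In the F-box gene AT1G47300 and in FAF1, AT5G55430 and CML11 the repeat lies in coding sequence, and that of CML11 has TTG in place of TTC.
AT4G04635, chr4:2348953-2349073: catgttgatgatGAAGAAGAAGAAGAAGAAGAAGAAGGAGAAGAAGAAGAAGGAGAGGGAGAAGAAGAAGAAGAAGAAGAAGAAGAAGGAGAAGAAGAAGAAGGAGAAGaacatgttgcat
AT1G40125, chr1:15214372-15214504: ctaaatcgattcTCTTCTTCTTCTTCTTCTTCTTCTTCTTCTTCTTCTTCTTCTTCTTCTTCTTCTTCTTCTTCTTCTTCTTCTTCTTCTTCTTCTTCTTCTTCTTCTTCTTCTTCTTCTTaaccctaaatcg
AT1G47300, chr1:17339660-17339771: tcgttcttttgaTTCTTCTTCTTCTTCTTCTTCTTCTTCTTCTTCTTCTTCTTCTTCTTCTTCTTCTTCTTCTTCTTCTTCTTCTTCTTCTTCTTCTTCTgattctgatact
AT3G30190, chr3:11821518-11821645: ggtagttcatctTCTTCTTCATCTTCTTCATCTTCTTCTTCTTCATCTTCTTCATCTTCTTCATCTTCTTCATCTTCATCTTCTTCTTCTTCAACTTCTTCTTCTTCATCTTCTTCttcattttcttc
FAF1, chr4:1256823-1256923: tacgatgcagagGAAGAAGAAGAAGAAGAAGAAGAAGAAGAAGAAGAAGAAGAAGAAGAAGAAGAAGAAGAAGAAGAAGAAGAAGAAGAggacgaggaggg
AT5G55430, chr5:22464811-22464886: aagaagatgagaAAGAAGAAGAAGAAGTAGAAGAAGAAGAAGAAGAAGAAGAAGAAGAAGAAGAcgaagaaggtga
CML11, chr3:8125746-8125835: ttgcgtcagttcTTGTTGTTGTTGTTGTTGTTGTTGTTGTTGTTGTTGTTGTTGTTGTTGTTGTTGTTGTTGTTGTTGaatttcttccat

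The other kind is shown because a MYC2 summit fell within a region that lost acetylation. Each run holds the summit and 30 bp to either side, with the G-box or CACGTT in capitals. All lie outside genes except that of GH9B1, which lies in an intron.
3168 bp from RAV1, chr1:4538735-4538795: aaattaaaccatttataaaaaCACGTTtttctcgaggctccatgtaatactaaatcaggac
RRTF1, chr4:16451722-16451782: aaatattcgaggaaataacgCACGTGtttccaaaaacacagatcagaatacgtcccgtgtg
RTFL12, chr4:7786242-7786302: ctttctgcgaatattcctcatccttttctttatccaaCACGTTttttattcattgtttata
GH9B1, chr1:26661261-26661321: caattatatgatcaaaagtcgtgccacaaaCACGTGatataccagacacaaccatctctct

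The lists called on pooled libraries hold read counts for each region but no replicate error, and each log2 value below is that of 2 h JA over control counts after scaling by the ratio of library totals the list implies. In the untreated libraries, domains held 13807286, 9844009 and 8986137 counts for PHILO replicates 1 to 3 and 11606919 and 10705391 counts for regular replicates 1 and 2. The regular pair differed by less than counting noise over 1167 domains common to all lists (chi-square per degree of freedom 0.901, against 1.45 to 1.94 for pairs of PHILO libraries), so its libraries were also counted as 1 sample. For scale, 16.7% of the 14163 pooled untreated H3K9ac domains overlapped any loss.

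The losses without H3K36me3 were short and held few reads. Their median width was 1200 bp, against 2000 bp for the losses with H3K36me3, and they covered 1.15 Mb, against 4.79 Mb. A median region held 247 counts after JA and 347 in control, where losses with H3K36me3 held 639.5 and 767. The median log2 change was -0.38 (range -4.21 to -0.04), against -0.22 (range -1.21 to -0.06). A fall of 0.5 or more on the log2 scale was seen at 232 of the 734 (31.6%), against 125 of the 1816 (6.88%), and a fall of 1 or more at 46 (6.27%) against 3 (0.165%). The caller's FDR limit asks for a larger fold where counts are low, and the part of depth in this contrast was not tested.

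At the boundary of the rule, 4 members ended 1 bp from an H3K36me3 domain. A member of this kind lies on AT1G55915 (chr1:20909601-20910800) with 377 counts after JA and 447 in control, and another on AT3G10130 (chr3:3130201-3131400) with 281 and 350. Just outside the rule, 3 losses overlapped H3K36me3 by 200 bp, the length of a bin. At CFM2, which acts in chloroplast intron splicing, such a loss (chr3:142401-144800) held 333 counts after JA and 639 in control, a log2 change of -0.93. The others held 636 and 750 counts (chr1:18801401-18803800) and 147 and 189 counts (chr4:9783401-9784800). Few members lay near the limit: 73 members lay within 1000 bp of an H3K36me3 domain, the median distance was 2801 bp and 195 lay more than 5000 bp away.

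H3K4me3 and H3K27me3 separated the regions into 4 classes. H3K4me3 alone was present at 249, both marks at 225, H3K27me3 alone at 125 and neither at 135. In all, 64.6% of the members overlapped an H3K4me3 domain (95% Wilson interval 61.0% to 68.0%), against 99.0% of the losses with H3K36me3, and 47.7% overlapped an H3K27me3 domain (44.1% to 51.3%), against 8.87%. The classes differed in their change after JA. Median log2 values were -0.31 with H3K4me3 alone, -0.38 with both, -0.51 with H3K27me3 alone and -0.45 with neither. A fall of 1 or more was found at 3 regions with H3K4me3 alone, 8 with both, 18 with H3K27me3 alone (14.4%) and 17 with neither (12.6%). Without the members that hold a tandem repeat, described below, these last counts were 10 of 117 and 13 of 130, and the medians -0.49 and -0.44. Regions without H3K4me3 were also smaller, with a median width of 1000 bp, against 1400 bp in both classes that carried it.

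**Figure D1:**
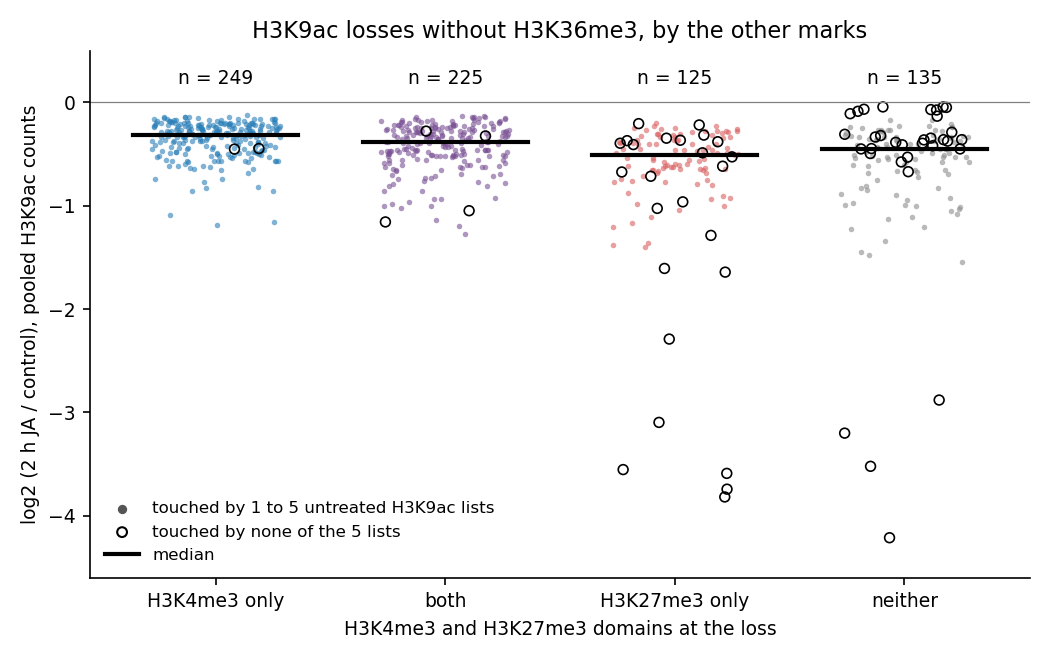
Each point is a loss without H3K36me3, placed by its log2 change (2 h JA over control, pooled H3K9ac counts) in the class given by H3K4me3 and H3K27me3 domains, with n above and the median as a bar. Open circles are the 64 regions that no untreated H3K9ac list touched, and those below -2 all lie in the H3K27me3-only and neither classes.

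The plot of log2 change by class shows that the classes overlap over most of their range and differ in their lower tails. Below -2 the tail consists of regions without an untreated H3K9ac domain in any single library, which is taken up next.

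Most members lay where untreated seedlings were acetylated in every library. All 5 lists touched (overlapped by 1 bp or more) 530 (72.2%), 1 to 4 lists touched 140, and 64 (8.72%, 95% Wilson interval 6.89% to 11.0%) were touched by none. Among losses with H3K36me3 all 5 lists touched 98.8% and none touched 6 (0.330%). The 64 untouched regions fell unevenly over the classes: 2 had H3K4me3 alone, 4 both marks, 25 H3K27me3 alone and 33 neither. The pooled untreated list, called on merged replicates, touched 649 members (88.4%) but only 6 of these 64. Their median log2 change, -0.41, was near the -0.38 of the touched regions, but they held both the largest and the smallest falls of the set.

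Each PHILO library touched somewhat more members than the regular ones did. The shares were 89.1%, 83.2% and 81.5% for PHILO replicates 1 to 3, and 80.4% and 81.2% for regular replicates 1 and 2. The means were 84.6% ± 3.99 (SD, n = 3) and 80.8% ± 0.578 (SD, n = 2), a difference of 3.81 percentage points that was smaller than the PHILO SD (two-sided exact permutation p = 0.2, where 0.1 is the smallest possible). With both regular libraries as 1 sample the exact permutation p was 0.5. PHILO replicate 1, whose domains held the most counts, carried much of this difference, and without it 1.57 points remained. The groups nearly met, since PHILO replicate 3 and regular replicate 2 lay 2 members apart in count, at 598 and 596. By class, the libraries touched 94.4% to 98.8% of regions with H3K4me3 alone and 89.3% to 98.2% with both marks, but 60% to 75.2% with H3K27me3 alone and 46.7% to 68.9% with neither.

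**Figure D2:**
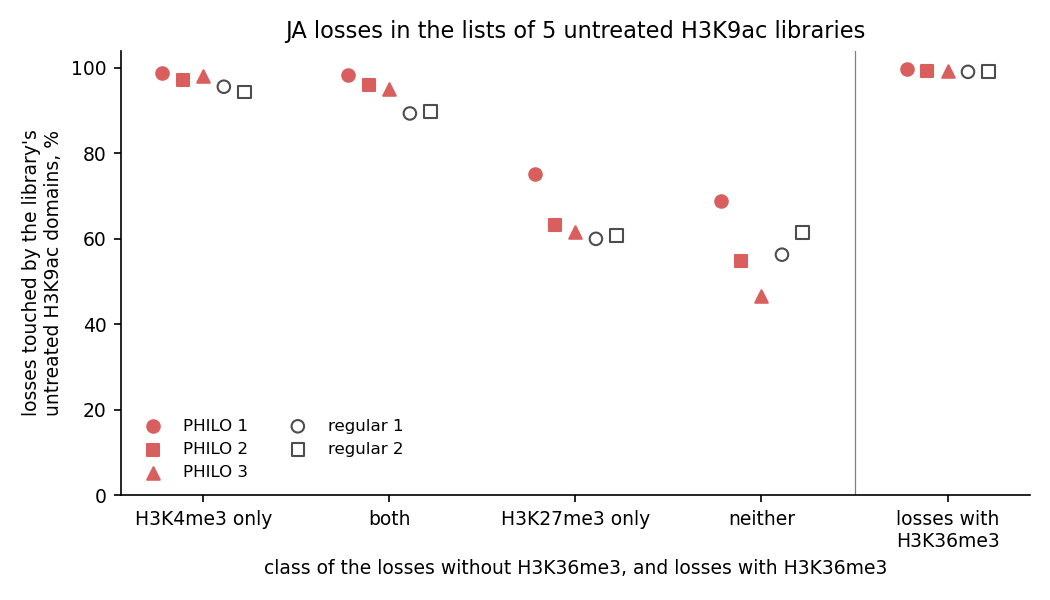
Share of losses touched by the untreated H3K9ac domains of each library (y axis, %), for the 4 classes without H3K36me3 and, right of the line, for losses with H3K36me3. Filled symbols are PHILO replicates 1 to 3 and open symbols regular replicates 1 and 2, and the 5 libraries lie close together above 89% where H3K4me3 was present and spread between 46.7% and 75.2% where it was not.

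The domains that touched the members were weaker than the usual domain in every library. Their median log2 fold over IgG was 1.52, 1.63 and 1.68 in PHILO replicates 1 to 3, where all domains had 1.91, 1.99 and 2.00. In regular replicates 1 and 2 it was 1.10 and 1.15, where all domains had 1.42 and 1.47.

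The largest falls after JA were on tandem repeats, a pattern noticed after the values were seen. All 10 largest falls among the 2550 losses were members, none of the 10 was touched by an untreated library, and each held a tandem stretch (a run that repeats a unit of 12 bases or fewer, scored 1 per repeated base and -3 per mismatch, with a score of 40 or more). Such stretches were found in 15 of the 734 members (2.04%), in 18 of the 1816 other losses (0.991%) and in 15 of the 3504 time course gains (0.428%). Of the 15 members, 14 were untouched by all lists.

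At the pseudogene AT4G04635, whose GAA-rich run is printed above, the region chr4:2348801-2349200 held 11 counts after JA and 206 in control, a log2 change of -4.21. At 148 bp from AT1G20290, 117 TTC units in a region without a gene (chr1:7024801-7025400) held 69 counts after JA and 983 in control (-3.82). The longest run of all, 200 GAA units partly in the transcribed pseudogene AT4G06597 (chr4:3655201-3656200), held 146 counts after JA and 1974 in control (-3.74). The pooled control reads there averaged 0.987 per position and strand, a mean that does not show how the reads were spread. The region of ribosomal RNA genes at chr3:14191601-14205200 averaged 0.827, with a log2 change of -0.04. A run of 186 bp in the coding sequence of AT5G03710, annotated as a replication factor C subunit, lies in a region that also reaches HSFA3, a heat shock factor (chr5:971201-971600), with 37 counts after JA and 450 in control (-3.59).

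Between genes, chr5:12710401-12710800 with 74 TTC units held 42 counts after JA and 498 in control (-3.55), and chr5:18311601-18311800 with 40 GAA units held 25 and 216 (-3.10). The pseudogene AT1G40125, with 35 TTC units (chr1:15214201-15214600), had 15 counts after JA and 174 in control (-3.52). In the F-box gene AT1G47300, 29 units (chr1:17339601-17339800) had 14 and 130 (-3.20). The pseudogene AT3G30190 repeats the 9 bases TCTTCATCT rather than GAA (chr3:11821401-11821800), and had 16 and 119 (-2.88). FAF1, a regulator of the shoot meristem, has 25 GAA units in its coding sequence (chr4:1256601-1257000) and had 34 and 168 (-2.29). No log2 value of the 10 overlapped those of the other losses, which reached -1.64.

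Smaller falls accompanied 3 further repeats. RIC10, which encodes an effector of ROP GTPases, has a run of the 12 bases GAAGAAGAAGAC and held 39 counts after JA and 120 in control (chr4:2488401-2488800, -1.61). AT5G55430 held 43 and 106 (chr5:22464601-22465000, -1.29). CML11, a calmodulin-like protein, has a TTG run in its coding sequence and held 103 and 232 (chr3:8125401-8126000, -1.16). In the remaining pair of members with a stretch the change was small, -0.15 at a TA run (chr1:4556201-4558600, touched by all 5 lists) and -0.04 at the ribosomal RNA genes of chr3:14191601-14205200.

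**Figure D3:**
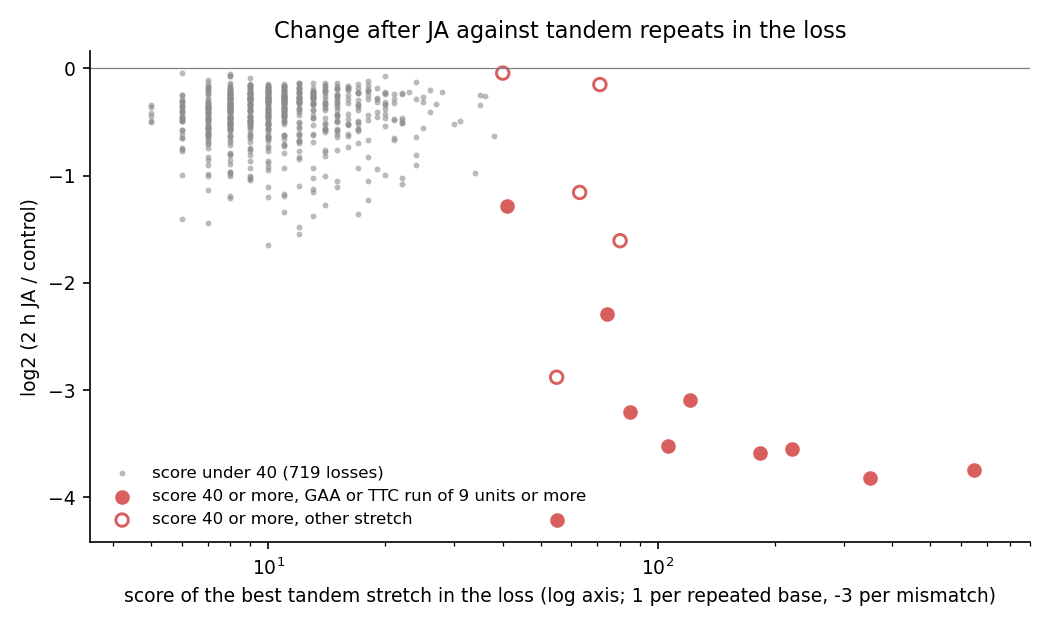
Log2 change after 2 h JA over control (y axis) of the losses without H3K36me3 against the score of the best tandem stretch in the region (x axis, log scale, 1 per repeated base and -3 per mismatch). Grey points are the 719 losses with a score under 40, none below -1.64, and red marks are the 15 with 40 or more, of which 10 lie at -2.29 or below.

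Looked at from the genome, every run of 30 or more GAA or TTC units was in a loss, in a search chosen after the values were seen. Of 8 runs with 30 or more units, 6 were in members and 2 in other losses, and 0 were in a time course gain. Those other 2 regions were wide and changed little: CIPK23, a kinase of potassium uptake (chr1:10654801-10656800), held 645 counts after JA and 720 in control (-0.14), and LUL4, a ubiquitin ligase (chr3:1855801-1859000), held 1013 and 1113 (-0.12). Of 9 runs with 20 to 29 units, 2 were in losses, both of them members, and 1 was in a gain. Among 22 runs with 15 to 19 units, 3 were in losses. Shorter runs lay in losses in 12 of 76 cases (10 to 14 units) and 20 of 119 (8 or 9 units).

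Other measures of these places were read beside those of all members. The pooled untreated H3K9ac list reached 4 of the 10, with a log2 fold over IgG of 0.64 to 1.18, beside 88.4% of all members. H3K27me3 domains reached 6 of the 10, beside 47.7% of all members and 45.3% of the 64 untouched ones. By blastn, 8 of the 15 members with a stretch matched another nuclear place over most of their length, as did 12 of the 64 untouched members (18.8%) and 18 of all 734 (2.45%). None matched an organelle genome. Whether repeat length, or matching elsewhere in the genome, had a part in these falls was not tested. Without the 15 members, the median log2 change of the other 719 was -0.38, the lowest was -1.64, a fall of 1 or more was left at 33 and 50 were untouched by all lists.

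The remaining untouched regions held both clear and very small falls. The lowest value without a repeat, -1.64, was at chr2:15374601-15375800, which carries H3K27me3 alone and has no gene. It held 52 counts after JA and 164 in control. P1R3 (chr3:11278601-11279000) held 45 and 94 (-1.05), and ATHB-15, a class III HD-ZIP factor of vascular and meristem patterning (chr1:19409201-19410600), held 106 and 218 (-1.03). Untouched regions also lay on TRY, a repressor of trichome fate, with 170 and 234 counts (-0.45), on the auxin synthesis gene YUC3 with 71 and 98 (-0.45) and on ERL1, a receptor kinase of stomatal patterning, with 113 and 144 (-0.33). At the other end, 8 untouched regions of 5600 to 22000 bp fell by 0.04 to 0.11 on the log2 scale. That with the ribosomal RNA genes held 21604 counts after JA and 22499 in control.

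Genes at the members were short and had few exons. Of the 734 regions 652 (88.8%) overlapped a protein-coding gene, against 99.6% of losses with H3K36me3, 38 overlapped a gene of another type alone and 44 no gene. They touched 731 protein-coding genes, 2.66% of 27432. The median gene was 1802 bp long with 2 exons, and 32.3% of genes had a single exon. Genes at losses with H3K36me3 had a median of 2486 bp and 5 exons with 12.5% of a single exon, and all protein-coding genes had 2078 bp, 4 exons and 18.9%. By class, members with H3K4me3, H3K27me3 or both had gene medians of 1751 to 1811 bp and 2 exons. The class with neither mark had 2297.5 bp, 5 exons and 18.4% with a single exon. Genes at members untouched by all lists had 2268 bp, 4 exons and 18.4%. The members also reached 63 lncRNA genes, 9 pseudogenes, 11 transcribed pseudogenes and 7 miRNA genes.

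Gene starts and gene ends were both rarer in members. A gene start lay in 29.4% of members, against 57.9% of the losses with H3K36me3, and a gene end in 20.2% against 36.4%. Members were also narrower (median 1200 bp against 2000 bp) and less often on a protein-coding gene. The part of width in these shares was not tested. By length, 40.8% of the bases of members were coding, 15.9% were other exon of coding genes, 14.1% were other parts of genes and 25.8% lay outside genes.

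Among members that an untreated library touched, the largest falls were led by regions without H3K4me3. The lowest, -1.54, was at the lncRNA genes AT5G00735 and AT5G00740 (chr5:40401-41400), with 71 counts after JA and 209 in control. A region 1263 bp from BT2, which encodes a BTB scaffold protein (chr3:17912001-17912400), held 42 and 118 (-1.48). Its untreated domains had log2 folds over IgG of 1.60, 1.63 and 1.27 in PHILO replicates 1 to 3 and 1.07 and 1.28 in regular replicates 1 and 2, so acetylation before JA was found in every library.

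DDF1, an AP2-type factor of the CBF group that lowers gibberellin (chr1:4290401-4291000), held 56 counts after JA and 154 in control (-1.44). Untreated log2 folds over IgG there were 1.49, 1.42 and 1.10 in PHILO and 1.15 and 1.13 in regular libraries. AT1G33760, another AP2 gene, with H3K27me3 alone (chr1:12237801-12239800), held 180 and 472 (-1.38), and its folds over IgG were 1.20, 0.99 and 1.81 in PHILO and 0.89 and 0.90 in regular libraries. AT1G75490, a further AP2 gene that carried both marks (chr1:28335601-28336600), held 209 and 510 (-1.27), with untreated folds of 2.18, 2.46 and 2.39 in PHILO and 1.56 and 0.99 in regular libraries. All 3 were acetylated in all 5 untreated libraries, and AT1G75490 stood highest in the PHILO ones.

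The others of the 10 were mostly small regions. The pseudogene AT5G44255 (chr5:17827801-17828600) held 85 counts after JA and 227 in control (-1.40) and was touched by regular replicate 2 alone. AT3G62950, a thioredoxin-family gene with H3K27me3 (chr3:23266201-23266800), held 64 and 166 (-1.36). The non-coding AT5G00435 (chr5:7251401-7252800) held 114 and 291 (-1.34). A region without a gene (chr1:7832001-7833200) held 78 and 184 (-1.22), and the non-coding pair AT2G08005 and AT2G08010 (chr2:10350601-10351000) held 48 and 112 (-1.21).

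With H3K4me3 alone, the 5 largest falls were all on protein-coding genes. NAP, a NAC factor that promotes leaf senescence (chr1:26122201-26123000), held 134 counts after JA and 309 in control (-1.19) and was touched by the 3 PHILO libraries only. WRI4, an AP2 factor of cuticular wax synthesis (chr1:29993201-29993800), held 139 and 313 (-1.16). PKS4, a phytochrome kinase substrate of phototropism (chr5:1151001-1152400), held 329 and 709 (-1.09). CRK11, a cysteine-rich receptor-like kinase (chr4:12142001-12145000), held 733 and 1345 (-0.86), and the transcriptional coactivator gene KELP (chr4:6696801-6697400) held 115 and 210 (-0.85). CRK11 had the highest counts of these 5 genes on both sides.

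With both marks, AT1G75490 was followed by AT1G02670, which encodes a nucleoside triphosphate hydrolase (chr1:575801-576800), with 97 counts after JA and 224 in control (-1.19). CML11 came next. EXO, an extracellular protein that promotes growth after brassinosteroid (chr4:5740401-5741600), held 253 and 561 (-1.13), with untreated folds over IgG of 1.72, 2.36 and 2.60 in PHILO and 0.97 and 1.03 in regular libraries. With H3K27me3 alone or neither mark, tandem repeats held the 5 largest falls of the H3K27me3-only class and 4 of the 5 largest of the class with neither.

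Gene families were counted against the share of all protein-coding genes, 2.66% of which overlapped a member, 10.1% a loss with H3K36me3 and 16.5% a time course gain. The AP2/ERF genes, transcription factors of ethylene, cold and drought responses, stood highest among the lists: 14 of 55 (25.5%) overlapped a member, 7 (12.7%) another loss and 12 (21.8%) a gain. They were followed by calmodulin-like genes with 3 of 15 (20%), the zinc finger genes ZAT and STZ with 1 of 6 (16.7%), the XTH genes that cut and join xyloglucan of the cell wall with 5 of 33 (15.2%), salicylic acid and immune genes with 4 of 28 (14.3%), GH3 and PIN genes of auxin with 2 of 18 (11.1%), cysteine-rich and wall-associated kinases with 5 of 49 (10.2%) and the auxin-induced SAUR genes with 8 of 80 (10.0%). On losses with H3K36me3, the shares were 20% for calmodulin-like genes, 50% for ZAT and STZ and 15.2% for XTH. Salicylic acid and immune genes had 32.1% there, GH3 and PIN 16.7%, the kinases 20.4% and SAUR 3.75%. Of the lists named so far, only AP2/ERF and SAUR had a larger share on members than on those losses. Nearer to or under the share of all genes were WRKY factors with 4 of 71 (5.63%), Aux/IAA with 1 of 32 (3.13%), heat shock with 1 of 44 (2.27%) and ribosomal proteins with 1 of 344 (0.291%). Expansins, histones, cyclins and aquaporins had 0 of 29, 48, 19 and 23. By product name, a choice made after the values were seen, senescence regulators of the DUF584 family had 4 of 12 (33.3%).

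**Figure D4:**
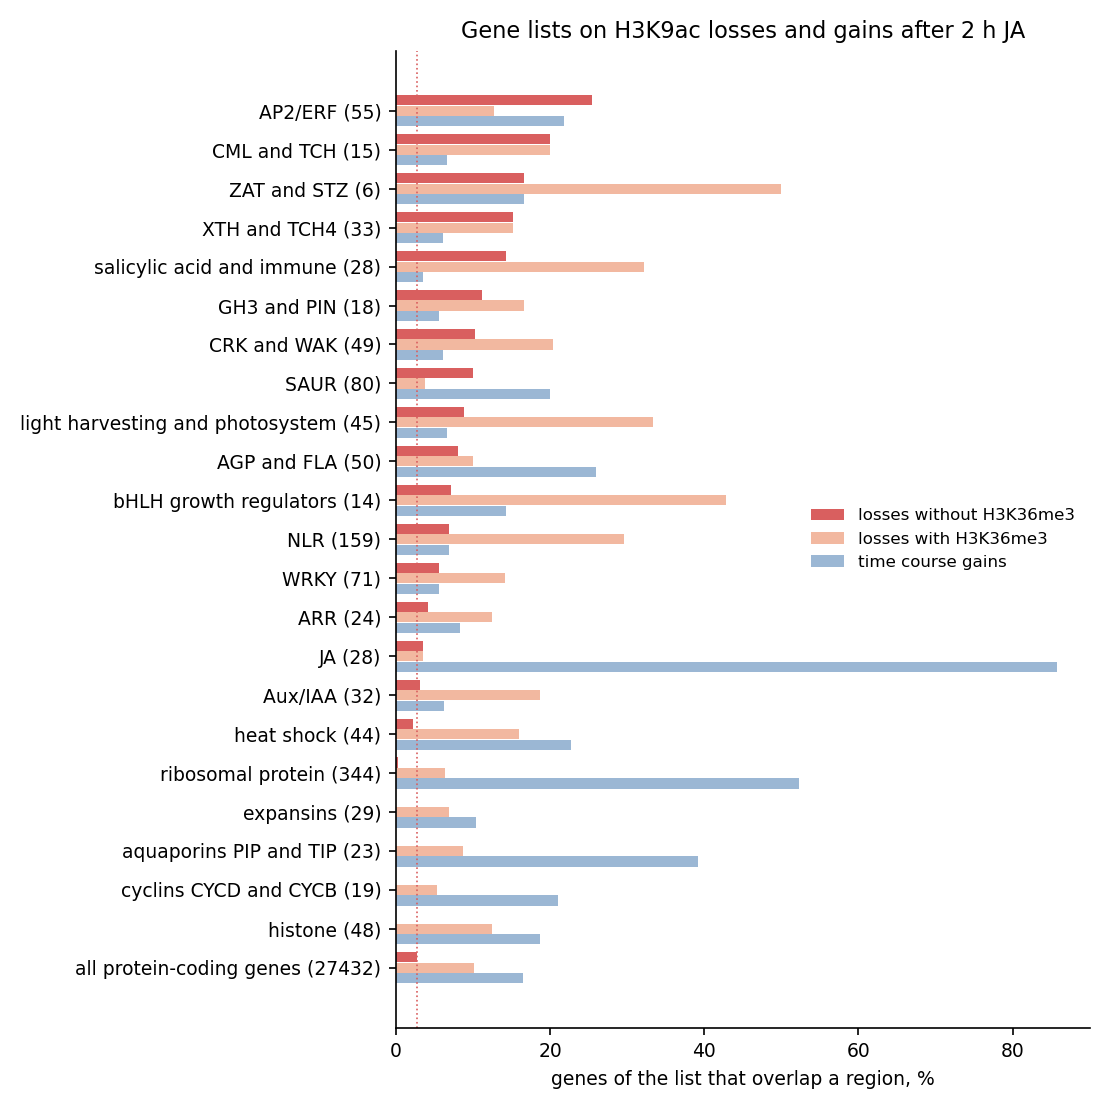
Share of the genes of each list (x axis, %, list size in brackets) that overlap a loss without H3K36me3, a loss with H3K36me3 or a time course gain. The dotted line is the 2.66% of all protein-coding genes that overlap a loss without H3K36me3, and AP2/ERF has the longest bar of that kind at 25.5%, where JA genes have 85.7% on gains.

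Since many AP2/ERF genes carry no such symbol, the family was also counted by product name, a choice made after the values were seen. Then 25 of 126 (19.8%) overlapped a member, in 24 regions, against 9 on other losses and 28 on gains. Of these 25 genes 20 have a single exon, as have 83 of the 126 in the family. In all, 21 lay in a region touched by all 5 untreated libraries, beside 72.2% of all members. A MYC2 summit lay in the region of 0 of them, beside 7.63% of all members. RRTF1 and Rap2.6L, family members with other names, are in neither count, and the region of RRTF1 held a summit. The median log2 change was -0.50, beside -0.38 for all members, and 13 fell by 0.5 or more. The neighbours CBF2 and DREB1A, which switch on cold-response genes, share a region (chr4:13015201-13019200) with 1092 counts after JA and 1510 in control (-0.45). Its untreated folds over IgG were 1.86, 2.00 and 1.81 in PHILO and 1.30 and 1.24 in regular libraries. CBF4 (chr5:21117001-21119200) held 217 and 389 (-0.83) and DREB26 (chr1:7694001-7697600) held 391 and 754 (-0.93).

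The genes with an ERF symbol had smaller falls than CBF4 and DREB26. ERF8, a repressor of ethylene response genes, held 516 counts after JA and 739 in control (-0.50), ERF104 held 521 and 738 (-0.49), and ERF11 held 374 and 495 (-0.39). ERF6 held 379 and 491 (-0.36) and ERF5 held 560 and 632 (-0.16). ERF5, ERF6 and ERF104 take part in the early response to ethylene and to microbial patterns.

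Immune genes at the members included regulators of salicylic acid. WRKY70, a factor that favours salicylic acid over JA responses (chr3:20909201-20910600), held 288 counts after JA and 457 in control (-0.65), with untreated folds over IgG of 1.98, 1.92 and 2.11 in PHILO and 1.57 and 1.74 in regular libraries. SARD1, an activator of salicylic acid synthesis, held 87 and 124 (-0.50), and CBP60G, which acts with it, held 197 and 262 (-0.40). The flagellin receptor gene FLS2 held 451 and 534 (-0.23). The SARD1 gene also overlapped a gain of the large-scale experiment, while WRKY70, CBP60G and FLS2 did not. A further 9 of the 28 genes lay on losses with H3K36me3 and 1 on a gain. WRKY28, WRKY48 and WRKY53 fell by 0.63, 0.55 and 0.50 on the log2 scale.

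Receptor genes fell together in some places. CRK14 and CRK15 share a region (chr4:12156201-12158000) with 236 counts after JA and 476 in control (-0.997), and CRK41 (chr4:418601-419200) held 59 and 119 (-0.997). Disease resistance genes of the NLR class, receptors inside the cell, overlapped members in 11 of 159 cases (6.92%) and other losses in 47 (29.6%). By blastn, AT4G16960 was the only NLR gene of the 11 whose region matched another nuclear place over most of its length, which leaves its counts uncertain, and no region of a CRK gene did.

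Growth genes at the members were those of cell walls and hormones. XTH18 (chr4:14826201-14828000) held 175 counts after JA and 354 in control (-1.001), and its neighbour XTH19 held 110 and 163 (-0.55). Both carried H3K27me3 alone. BEE3, a bHLH factor raised by brassinosteroid (chr1:27760001-27761200), held 210 and 415 (-0.97). Of its list of 14 bHLH growth regulators, 1 overlapped a member, 6 (42.9%) a loss with H3K36me3 and 2 a time course gain. The SAUR genes at members fell by 0.21 to 0.82 on the log2 scale in 7 regions. Of all 80 SAUR genes, 8 overlapped a member and 16 (20%, beside 16.5% of all protein-coding genes) a time course gain. IAA19, a repressor of auxin response, held 196 and 277 (-0.48). Of the photosynthesis list 4 of 45 genes overlapped a member, with falls of 0.15 to 0.19 (LHCB2.1, LHCB2.3, RBCS1B and RBCS2B).

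Of 28 JA genes, 24 lay on time course gains and 1 (3.57%, beside 2.66% of all protein-coding genes) overlapped a member: CYP94B3, the cytochrome P450 that oxidises JA-Ile (chr3:17975601-17977200), with 232 counts after JA and 391 in control (-0.74). It carried H3K27me3 alone and a MYC2 summit.

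MYC2 summits lay in 56 members (7.63%, 95% Wilson interval 5.92% to 9.78%), against 147 losses with H3K36me3 (8.09%) and 7.55% of all pooled untreated H3K9ac domains, so the 3 shares were alike in size. Per length, members held 49.4 summits per Mb, the other losses 35.1 and the pooled H3K9ac domains 44.8. By class the share was 8.84% with H3K4me3 alone, 7.11% with both marks, 3.20% with H3K27me3 alone and 10.4% with neither, and 2 of the 64 untouched regions held a summit. The 57 summits had a median fold of 2.44, against 2.50 in the other losses and 2.59 over all 3464. CACGTG or CACGTT stood within 50 bp, on either strand, of 19 of the 57 (33.3%), against 42.3% in the other losses and 44.9% of all summits.

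The strongest summit, with a fold of 3.44, was in AT2G27080 (chr2:11565601-11567200), where acetylation was 315 counts after JA and 520 in control (-0.71). MET1, the maintenance methyltransferase of CG sites, had a summit of 3.39 and 590 and 691 counts (-0.21). AT5G15190 had 3.20, as had RAS1 and CYP78A6, a cytochrome P450 that promotes seed growth. The summit near RAV1, printed above with its CACGTT, had a fold of 3.19 in a region of 529 and 648 counts (-0.28). A summit of 3.07 lay within a gene in an untouched region that overlaps CYL1 and PAO1. This region and that near RAV1 also overlapped a gain of the large-scale experiment. The regions of the other summits in this paragraph did not.

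STZ, a zinc finger repressor of abiotic stress responses (chr1:9647001-9650800), held 1038 counts after JA and 1441 in control (-0.46), and its summit of fold 3.05 had a G-box within 50 bp. AT1G35430 and CMPG1, a U-box ubiquitin ligase, had summits of 3.04 and 2.98 without CACGTG or CACGTT in that window. Among the printed sequences, RRTF1, an ERF of oxidative stress, has a G-box at its summit (fold 2.63) in a region of 373 and 460 counts (-0.29). RTFL12, a small peptide gene, has CACGTT (fold 2.44) where acetylation was 209 and 461 (-1.13), the largest fall of these 4. GH9B1, a cellulase of growing walls, has a G-box (fold 2.33) and a change of -0.24.

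The large-scale experiment compared the same treatment in other libraries, which the choice of members did not use. Its deposited list of gains overlapped 42 members (5.72%, 95% Wilson interval 4.26% to 7.64%), 108 losses with H3K36me3 (5.95%) and 14.2% of pooled untreated H3K9ac domains. At these 42 the acetylation was thus lower after JA in the time course and higher after JA in the large-scale libraries. The median log2 change was -0.32 in the time course and 0.27 (range 0.05 to 0.62) in the large-scale list, whose gains had a median of 0.29, and 85.5% of the bases of these members were covered. A summit was held by 13 of the 42 (31.0%). Large-scale losses were not analysed here, so no count of losses seen in both experiments is given.

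NAC3, a NAC factor of JA and drought responses (chr3:5234601-5235800), had 335 counts after JA and 431 in control in the time course (-0.35) and 388 and 266 in the large-scale libraries (0.62). MYB15, a MYB factor of cold and lignin responses (chr3:8308601-8310400), had 167 and 234 in the time course (-0.47) and 1083 and 893 in the longer large-scale domain (0.36). Asparagine synthetase ASN1 had 639 and 948 (-0.55) in the time course, and 95 and 72 (0.48) in a large-scale domain of 600 bp. In the region shared by CBF2 and DREB1A, a large-scale domain of 400 bp had 92 and 63 (0.62) and overlapped neither gene. At ASN1 and in the region of CBF2 and DREB1A the large-scale gain was a short domain, where a wider region fell in the time course.

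**Figure D5:**
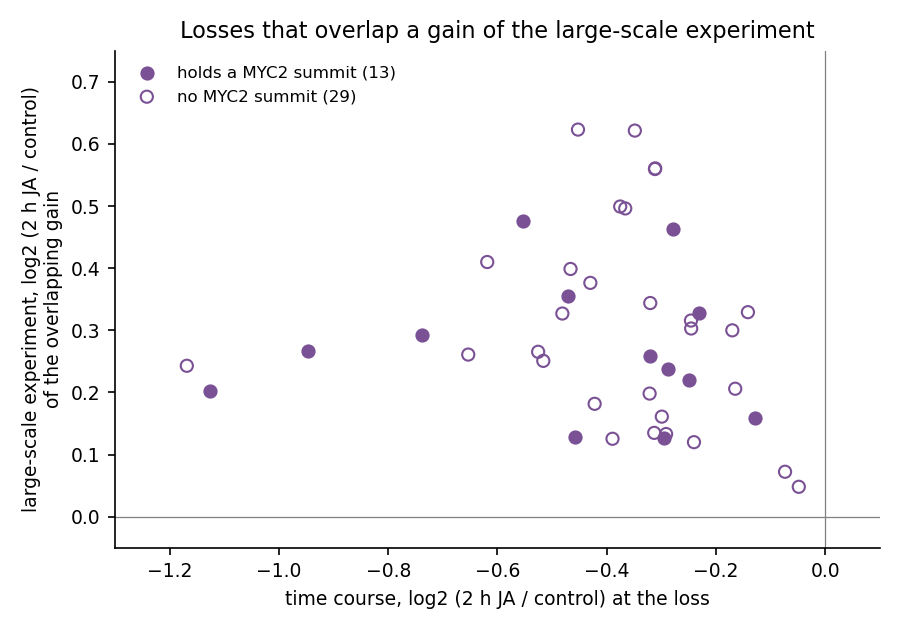
The 42 losses without H3K36me3 that overlap a large-scale gain, by their log2 change (2 h JA over control) in the time course (x axis) and in the overlapping large-scale gain (y axis). Filled points hold a MYC2 summit (13) and open points do not (29), and the 2 kinds are mixed over the plot.

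CYP94B3 rose to 496 counts after JA in the large-scale libraries, against 427 in control (0.29), over 2400 bp. RRTF1 had 1886 and 1686 (0.24), RTFL12 had 817 and 749 (0.20), and the ubiquitin ligase gene PUB23 had 1040 and 1004 (0.13). The lowest time course value of the 42 was at BPS3 (chr4:564801-565800), with 103 and 234 counts there (-1.17) and 285 and 254 in the large-scale libraries (0.24). In the plot of both experiments it is the point at the far left.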

How the data were processed

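The members and gene lists were chosen with earlier results of these data known. Samples were grouped by their labels (by title where an IgG library and the MYC2 samples carried other characteristics), and lists were tied to libraries or pools through them (0 columns of other samples). By the methods given, the authors used Bowtie2 2.4.1 to align reads to TAIR10, called domains in bins of 200 bp with epic2, which the processing notes list as SICER 0.0.52, and called MYC2 peaks with MACS2 2.2.7.1. Which IgG library served as control and how duplicate reads were handled is not given in the sources used here. The deposited domain lists give unnormalized read counts for both sides, the caller's p-value as an FDR under 0.05, and the authors' log2 fold, from which the ratio of totals was recovered. The deposited MYC2 list gives a fold enrichment and −log10 p-values and q-values.

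Overlap required 1 bp. Named regions were the 10 largest falls among touched and among untouched members, the 5 largest of each class, the 10 strongest summits, 3 regions on either side of the rule's limit, and genes of the lists. A region so named is not reported here. AP2/ERF by product name, the repeat search and the large-scale examples were chosen after values were seen. The regions of P1R3, ATHB-15, TRY, YUC3 and ERL1 and the lowest untouched region without a repeat were named outside these rules. Shares carry 95% Wilson intervals, which cover counting error only. Libraries were compared by a two-sided exact permutation test over 5 libraries, which are not stated to be separate cultures, so p measures the spread between them, which may be technical. Same-numbered libraries share only a number. Matches elsewhere in the genome used blastn 2.17.0 (95% identity, 50% of the region). Python 3.11.15, numpy 2.4.6, pandas 2.3.3, scipy 1.17.1 and matplotlib 3.10.9 were used. On simulated data, 0 of 3200 interval checks, 0 of 100 repeat checks and 0 of 50 exact test checks failed. Alternatives changed the limits on overlap, width, fold and FDR, left out libraries in turn, used a replicate block or other summit windows, or dropped repeated regions.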

Additional observations from a re-analysis of the deposited data

Results flagged for a closer look

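At 42 members the sign of the change differed between the experiments: H3K9ac was lower after 2 h JA in the time course and higher in the large-scale libraries. Each experiment is a comparison of pooled libraries, so the difference between them was not tested. They are 5.72% of members, against 5.95% of losses with H3K36me3 and 14.2% of pooled untreated H3K9ac domains. Of these regions 13 (31.0%, beside 7.55% of those domains) held a MYC2 summit, those of CYP94B3, MYB15 and RTFL12 among them. The share with a summit over all large-scale gains was not computed. The regions of NAC3 and of the pair CBF2 and DREB1A were among the 29 without, and the gain in the latter overlapped neither gene.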

How the results depend on the processing

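Of 46 alternatives, 35 were scored as leaving the value the same and 11 as moving it. A share was the same within its counting interval, and a count within 1.5 times. The PHILO minus regular difference was scored by its sign alone. Only its 9 alternatives could turn a direction, and 0 did. With losses of log2 fold 0.5 or more, 232 members were left, and with an FDR below 0.001, 463. Where the mark had to cover 50% of a region, 51.2% had H3K4me3 and 38.8% H3K27me3, and with H3K27me3 domains of log2 fold 1 or more the share was 42.4%. By the pooled H3K9ac list alone, 11.6% were untouched, and leaving out single libraries gave 8.86% to 10.5%. A MYC2 summit within 500 bp was found for 14.2%, and a peak of at least the median fold in 3.68%. Large-scale gains of log2 0.5 or more overlapped 0.545%. The middle of the region was in a coding gene for 80.1%. Without tandem stretches, an alternative chosen after seeing the data, 1.39% matched another nuclear place. The PHILO minus regular difference ranged from 1.57 (without PHILO replicate 1) to 5.38 percentage points (without PHILO replicate 3). Pairing libraries by number as a replicate block gave 5.38 points. The pooled libraries and the low counts of many regions limit what single folds can show.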
